A study of Mus musculus with 4 samples.

Results

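The proteasome genes described here were all genes on the array whose symbol begins with Psma, Psmb, Psmc, Psmd, Psme, Psmf or Psmg followed by a digit, 49 of 17711 named genes. They comprised 47 genes for subunits, assembly factors, activators and an inhibitor of the proteasome, together with Psmc3ip and Psme3ip1, which the rule takes for their spelling. Psmc3ip encodes a meiotic recombination factor and Psme3ip1 a nuclear protein that binds the activator subunit Psme3, and neither is a part of the proteasome. Expression had been measured in 4 cultures of immortalized mouse fibroblasts with 1 Illumina bead array each. One culture had received miR-141, one miR-200c, one a control miRNA and one the transfection reagent alone, called transfectant only, although its transfection field reads none. Transfection lasted 48 h. Every culture, controls included, was exposed to 400 µM hydrogen peroxide for 2 h, so that the effect of the peroxide itself could not be compared. With 1 library per group, no difference below has a replicate check, no p-value is given, and precision is limited by there being 4 arrays. The labels do not say whether the fibroblasts were 1 clone, how they were immortalized or which arm of each miRNA was given.

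The proteasome is the large protease that breaks down proteins tagged with ubiquitin. Its barrel-shaped core is made of outer rings of alpha subunits and inner rings of beta subunits, of which Psmb5, Psmb6 and Psmb7 carry the active sites. A regulatory particle on the end of the barrel binds ubiquitin chains, removes them and threads the substrate inward with a ring of ATPases. Cells exposed to oxidants rely on the core to clear damaged proteins, and the transcription factor Nfe2l1 is known to raise the genes of most subunits together when proteasome activity falls short. Interferon brings in the inducible beta subunits Psmb8, Psmb9 and Psmb10 and the activator Psme1 and Psme2, which favour peptides for antigen presentation.

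The sequences of the transfected miRNAs are shown because their seeds, bases 2 to 8 in capitals, decide which transcripts each can pair with. Both arms are given, 5′ to 3′, as annotated by RefSeq on the minus strand of build GRCm38.p6.
miR-141-3p, chr6:124717917-124717938: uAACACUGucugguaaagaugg
miR-141-5p, chr6:124717959-124717980: cAUCUUCCagugcaguguugga
miR-200c-3p, chr6:124718324-124718346: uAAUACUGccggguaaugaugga
miR-200c-5p, chr6:124718365-124718386: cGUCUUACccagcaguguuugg
The 3p seeds differed at 1 base, C4U counted from 1 at the 5′ end with miR-141-3p first. No 3′ UTR sequence was searched for matches to these seeds.

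Promoters were searched for the core of the antioxidant response element, the site through which Nfe2l1 and Nfe2l2 act, because it could have marked out proteasome genes that share a response to oxidants. Windows from 250 bases before to 50 bases after the annotated start were available in RefSeq for 42 of the 49 genes. The letters TGACNNNGC, read on both strands, were found for 6 of the 42 genes (14.3%), against 14.0% of 27025 genes with a window. The box bound by NF-Y, CCAAT on either strand, was found for 16 of the 42 genes (38.1%), against 41.1% of all genes. The shares in the proteasome promoters were thus near those in promoters at large, and a match is a description of letters and not a binding site. The 6 matches are printed 5′ to 3′ on the strand that reads TGAC, with the motif in capitals and up to 8 bases on either side, in build GRCm38.p6.
Psmb5, chr14:54618026-54618050, minus strand: tgaagttgTGACGTCGCggcgttgc
Psmb6, chr11:70525340-70525364, plus strand: aaagagagTGACGGAGCgctttacg
Psmc6, chr14:45329589-45329613, minus strand: gcaatgccTGACTTAGCtactggct
Psmd9, chr5:123228151-123228175, plus strand: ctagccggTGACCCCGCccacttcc
Psmd12, chr11:107479278-107479297, minus strand: ggcaaatgTGACACAGCaga
Psme4, chr11:30771760-30771784, minus strand: tcttctggTGACGCTGCagccgcag
Counted from their upstream end, the matches of Psmb5, Psmb6, Psmd9 and Psme4 lay 47, 9, 31 and 7 bases before the annotated start. Those of Psmc6 and Psmd12 lay 227 and 247 bases before it. The match of Psme4 thus spans the annotated start.

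In the order transfectant only, control miRNA, miR-141, miR-200c, the mean raw signal of the arrays was 246, 151, 198 and 190 intensity units, so that the control miRNA array was the dimmest, before normalization. The median raw signal ranged from 42.8 to 49.5 units and the number of detected probes from 11339 to 11747, with a detection p-value under 0.01 counted as detected. The cells carried fibroblast markers, with 7 of 12 listed markers detected in both controls, among them Vim, Fn1 and Col1a1, although Col1a2, Col3a1, Thy1, Lum and Pdgfra were below detection in every library. The raw signals of the 12 fibroblast markers, summed and divided by the mean signal of the array, came to 107, 108, 90.9 and 75.8 in that order. By the 1.5-fold rule against both controls given below, 3 of the 7 detected markers were called lower with miR-141, where 3.14% of all genes were. With miR-200c 4 were called lower and 1, Dcn, higher, where 4.55% and 4.07% of all genes were. Of 7 epithelial markers, Krt19 alone was detected in the controls and Krt19, Krt8 and Cldn4 in each miRNA library. The same measure over the 7 was 1.6, 2.18, 2.57 and 4.66, from raw sums of 392, 328, 508 and 887 units. The order of the controls was thus reversed by the division. Their sums also hold uncorrected signals of probes below detection, so no rise between the controls is read from this measure. Both miRNA libraries had higher values than both controls before and after the division. Cdh1, Epcam and Esrp1 were below detection throughout. Of the immune and endothelial markers on the array only Cd14 and Kdr were detected, while Ptprc, Pecam1 and Cdh5 were not. The part of these shifts in the values below was not tested. All levels below are background-corrected, quantile-normalized log2 signals of the brightest probe per gene.

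Of the 49 genes, 40 gave a detected signal in some library, and 38 of these did so in all 4. The 9 genes below detection in every library were Psma5, Psma6, Psma8, Psmb8, Psmb9, Psmb11, Psmc6, Psmd11 and Psmg4, with log2 signals between 4.28 and 5.12. Psma8 and Psmb11 are known from testis and from thymic epithelium, and Psmb8 and Psmb9 are inducible. Psma5, Psma6, Psmc6 and Psmd11, by contrast, encode subunits that every working regulated proteasome contains, and a probe below detection does not show that their transcripts were absent. Psmg2, the partner of the assembly factor Psmg1, was not analysed here. Over the 38 genes detected everywhere, the highest and lowest of the 4 log2 signals lay 0.12 to 0.89 apart with a median of 0.31, against a median of 0.43 over the 6485 genes detected in all 4 libraries. A spread of 1.5-fold or more (0.585 on the log2 scale) was reached by 6 of the 38 genes (15.8%), against 27.5% of all genes.

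**Figure D1:**
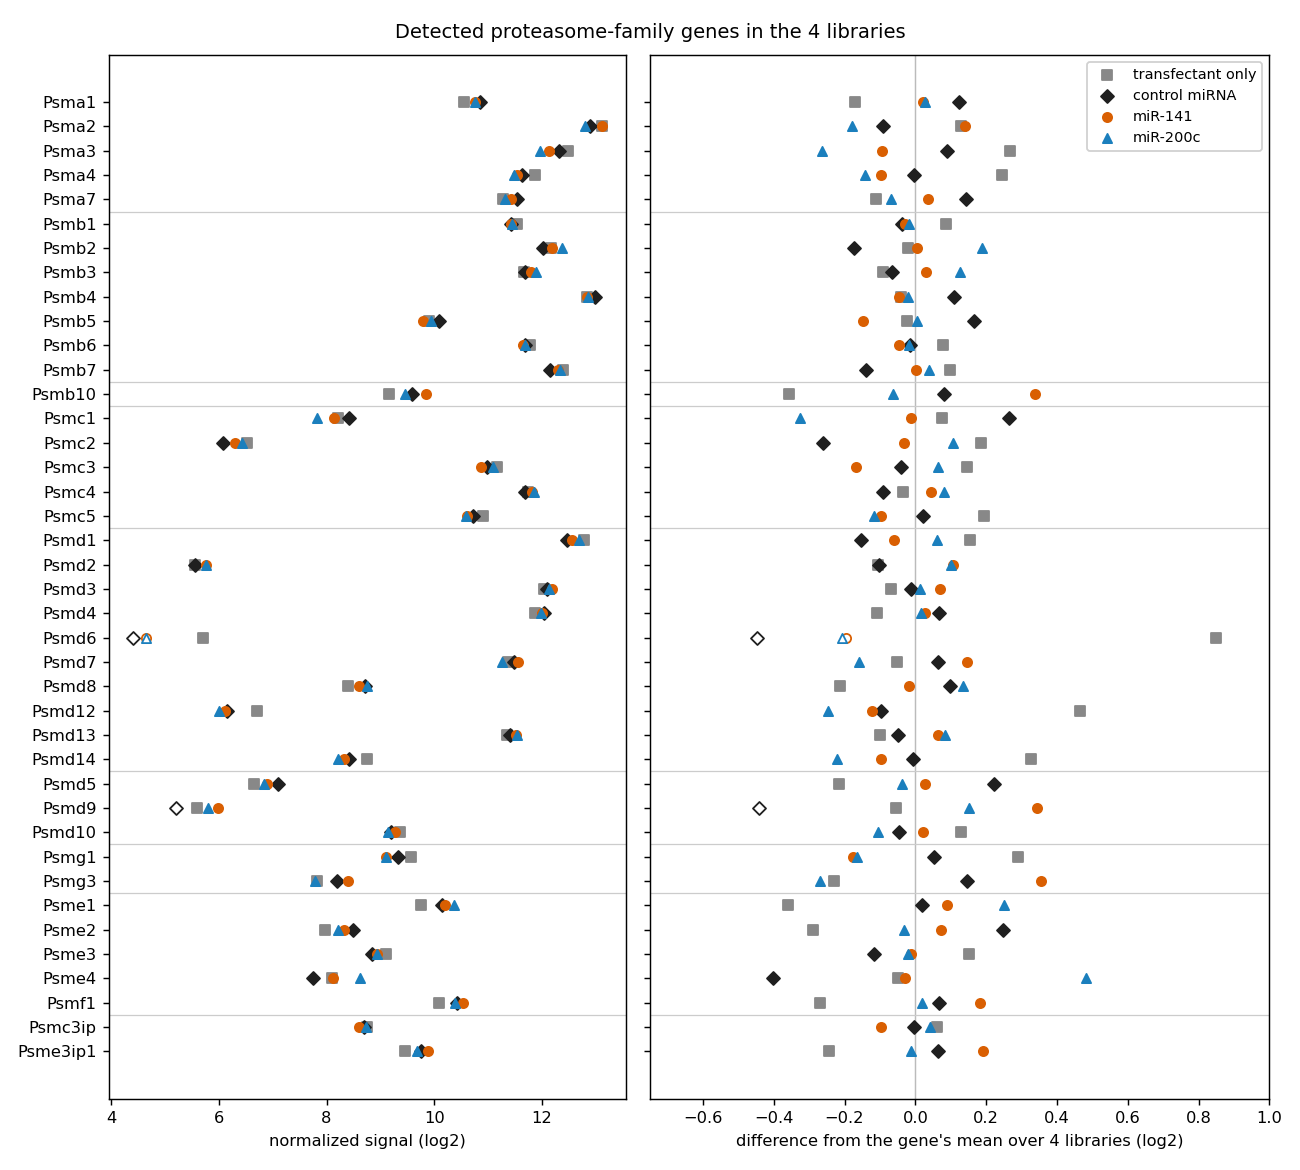
Normalized log2 signal of the 40 detected proteasome-family genes in the 4 libraries (left) and the difference of each library from the gene's own mean on the log2 scale (right), with 1 point per library, open where the probe was below detection, and lines between role groups. Among the 38 genes detected in every library the highest and lowest signals lie 0.12 to 0.89 apart, with Psme4, Psmd12 and Psmb10 the widest, and the open points of Psmd6 and Psmd9 have only a bound.

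The first comparison asked whether proteasome genes differed in cells given miR-141. A gene was called when it was at least 1.5-fold higher, or at least 1.5-fold lower, than in both controls and was detected with the miRNA or in both controls. None of 39 proteasome genes was called, with 0 higher and 0 lower, where 2.37% of 7188 genes were called higher and 3.14% lower. At these rates few calls would fall in a list of 39, so the count of 0 alone does not set the family apart. Psmd6 was outside the count because it was below detection with miR-141 and in a control. At a smaller size of 1.3-fold, 1 gene of 39 passed, Psmd9, where 13.1% of all genes passed. The median log2 difference of the 40 detected genes from control miRNA was 0.07, which turned to -0.02 under median scaling and to -0.01 with the values as the authors processed them. Their median difference from transfectant only was 0.02, and over all 7734 detected genes the medians were 0.01 and 0.02. The signal with miR-141 lay above both controls for 15 of the 40 genes, below both for 12 and between them for 13, where it did so for 2762, 2482 and 2490 of the 7734 detected genes. The standard deviation of the differences against control miRNA was 0.20 over the 40 genes and 0.37 over all detected genes. Since proteasome probes are bright and bright probes vary less, the same was taken over the brightest 2578 genes, where it was 0.14 for the 29 proteasome genes among them and 0.29 for all. Of these 29 genes 0 were called, where 3.26% of the brightest genes were.

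For miR-200c the rule gave the same count. Again 0 of 39 proteasome genes were called higher and 0 lower, where 4.07% of 7202 genes were called higher and 4.55% lower. At 1.3-fold 2 of 39 passed, Psme4 above and Psmc1 below both controls, where 17.2% of all genes passed. The median log2 difference from control miRNA was -0.05, against -0.00 over all detected genes. From transfectant only it was 0.00, against 0.01 over all. The signal with miR-200c lay above both controls for 10 of the 40 genes, below both for 12 and between them for 18, where it did so for 2752, 2691 and 2291 of the 7734 detected genes. The standard deviation against control miRNA was 0.27 over the 40 genes and 0.45 over all genes, or 0.17 and 0.35 among the brightest 2578. Of the 29 bright proteasome genes 0 were called, where 5.78% of the brightest genes were. The comparisons of both miRNAs share their controls and are not independent of each other.

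**Figure D2:**
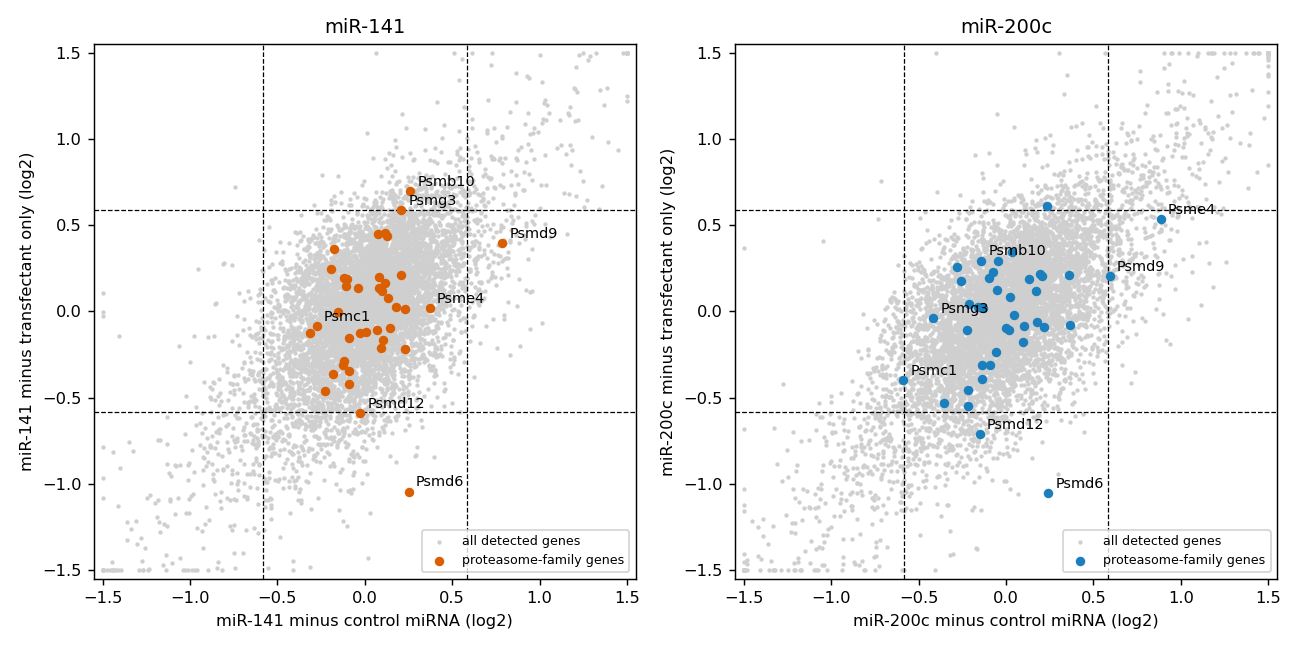
Log2 difference of each miRNA library from control miRNA (x axis) and from transfectant only (y axis) for the 40 detected proteasome-family genes (coloured points) and all 7734 detected genes (grey, values beyond 1.5 drawn at the edge), with dashed lines at 1.5-fold. No coloured point lies beyond the lines on both axes in the same direction, and Psme4 with miR-200c comes closest.

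Differences in the core particle were small. Of the alpha ring, which gates the entrance to the barrel, Psma1, Psma2, Psma3, Psma4 and Psma7 were detected, and their log2 differences ran from -0.18 to 0.23 with miR-141 and from -0.35 to -0.09 with miR-200c, both against control miRNA. All 5 were lower with miR-200c than with control miRNA, also under median scaling or with the authors' processed values, by a median log2 difference of -0.14. By contrast, Psma1 and Psma7 were at 0.20 and 0.04 against transfectant only. Psma3 had the largest difference of them, with log2 signals of 12.49 in transfectant only, 12.31 in control miRNA, 12.13 with miR-141 and 11.96 with miR-200c. It was lower with either miRNA than in both controls, and its difference with miR-200c was -0.35 and -0.53, short of the 1.5-fold size.

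The constitutive beta subunits Psmb1 to Psmb7 were detected in every library, with differences from -0.32 to 0.18 with miR-141 and from -0.16 to 0.36 with miR-200c against control miRNA. Psmb5, whose product cuts after hydrophobic residues, had log2 signals of 9.91 in transfectant only, 10.10 in control miRNA, 9.78 with miR-141 and 9.94 with miR-200c. It was lowest with miR-141, at -0.32 from control miRNA and -0.13 from transfectant only. Psmb6, the caspase-like subunit, had the narrowest range of the detected genes, 0.12, at 11.77, 11.68, 11.65 and 11.68 in the same order of libraries. Psmb7, the trypsin-like subunit, was at 12.39, 12.15, 12.29 and 12.33, with control miRNA lowest on this probe. Of its 2 other detected probes, 1 had transfectant only lowest, so the 3 probes differed in sign between the controls. All 7 constitutive beta genes were below their miR-200c level with miR-141, by 0.01 to 0.18 on the log2 scale, but only 3 of 7 were under median scaling and 2 of 7 with the authors' processed values, so no common direction is read from them.

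Of the inducible beta genes, which replace the constitutive active sites in immune and interferon-treated cells, Psmb8 and Psmb9 were below detection in all 4 libraries. The signals of the brightest Psmb8 probe were 4.80 in transfectant only, 4.73 in control miRNA, 5.08 with miR-141 and 5.12 with miR-200c. Psmb10 was well detected, at 9.16 in transfectant only, 9.59 in control miRNA, 9.85 with miR-141 and 9.45 with miR-200c. It was highest with miR-141, at log2 differences of 0.26 from control miRNA and 0.70 from transfectant only, the latter 1.62-fold. Its other probe had the same signs, at 0.28 and 0.59. The constitutive counterpart of Psmb10 is Psmb7, which differed by 0.14 and -0.10 in the same comparisons. Psmb11, the thymic subunit gene that lies next to Psmb5 in the gene table, was below detection while Psmb5 was not.

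The ATPases of the base, which unfold substrates, included the core or base subunit that differed most from control miRNA. Psmc1 had log2 signals of 8.22 in transfectant only, 8.41 in control miRNA, 8.13 with miR-141 and 7.82 with miR-200c. It was lowest with miR-200c, at -0.59 from control miRNA, past the 1.5-fold size, and at -0.40 from transfectant only, short of it. The former was -0.51 without background correction, -0.52 with an offset of 50 and -0.56 with the authors' processed values, all short of 1.5-fold. Psmc2 had the opposite sign between miR-200c and control miRNA, at 0.37, with signals of 6.51, 6.07, 6.30 and 6.43, where control miRNA was lowest and transfectant only highest. Psmc3 was at 11.17, 10.99, 10.86 and 11.09 and differed by -0.23 between miR-141 and miR-200c. Psmc4 and Psmc5 stayed within 0.31 across all libraries.

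Among the other subunits of the base and the lid, which hold the ubiquitin receptors and the deubiquitinating subunit, 10 of 11 were detected. Leaving out Psmd6, their log2 differences from control miRNA ran from -0.12 to 0.21 with miR-141 and from -0.22 to 0.22 with miR-200c. Psmd1 and Psmd2, the scaffolds of the base, were at 0.09 and 0.21 with miR-141 and at 0.22 and 0.20 with miR-200c. Psmd4, a ubiquitin receptor, was at -0.04 and -0.05. Psmd14, the deubiquitinase of the lid, had signals of 8.75 in transfectant only, 8.42 in control miRNA, 8.33 with miR-141 and 8.21 with miR-200c. Psmd12, also of the lid, had signals of 6.71, 6.15, 6.12 and 6.0. In both genes transfectant only stood above the 3 libraries that had received a small RNA. Those 3 spanned 0.15 in Psmd12 and 0.22 in Psmd14 on the log2 scale. Among the 38 genes detected everywhere, transfectant only was highest in 15 (39.5%) and lowest in 14 (36.8%), against 28.1% and 31.4% of all genes.

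Psmd6, another lid gene, was the only one called between the controls, and the call rests on values below detection. Its log2 signals were 5.70 in transfectant only, 4.40 in control miRNA, 4.65 with miR-141 and 4.64 with miR-200c. Only the first was above detection, at a detection p-value of 0.004, while the others had 0.536, 0.116 and 0.115. Against the lowest detected signal of each array, Psmd6 was at least 1.29-fold lower in control miRNA, at least 1.27-fold lower with miR-141 and at least 1.26-fold lower with miR-200c than in transfectant only, all short of 1.5-fold. The other probe of the gene was below detection in every library, so the difference rests on 1 dim probe on 1 array.

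Of the factors that assemble the proteasome, Psmd9, a chaperone of the base, had signals of 5.59 in transfectant only, 5.20 in control miRNA, 5.98 with miR-141 and 5.79 with miR-200c. It was below detection in control miRNA, and with miR-141 it was at least 1.57-fold above that library but only 1.32-fold above transfectant only. The log2 difference from control miRNA, 0.78 here, was 0.41 without background correction, 0.46 with the authors' processed values and 0.46 with an offset of 50, all short of 1.5-fold. The next probe of Psmd9 had 5.73, 5.15, 5.52 and 5.13 and placed both miRNA libraries below transfectant only, so the probes disagreed. Psmd5, which holds ATPases during assembly, was at 6.66, 7.09, 6.90 and 6.83, highest in control miRNA. Psmd10, an oncoprotein also named gankyrin, stayed within 0.23, though its 3 probes differed in sign with miR-141.

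Psmg1 and Psmg3, chaperones of the alpha ring, had different patterns. Psmg1 had signals of 9.56 in transfectant only, 9.32 in control miRNA, 9.10 with miR-141 and 9.11 with miR-200c, lower with both miRNAs than in both controls by 0.22 to 0.46. Psmg3 had signals of 7.82, 8.20, 8.41 and 7.78, with miR-141 highest and miR-200c lowest. It was 1.54-fold higher in the former, and was the 1 proteasome gene called between the miRNAs. That log2 difference of 0.62 was 0.53 without background correction and 0.56 with an offset of 50, which end the call.

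The activators, which cap the barrel in place of the regulatory particle, held the gene nearest to a call. Psme4, whose product is known for histone breakdown and work in the testis, had signals of 8.10 in transfectant only, 7.75 in control miRNA, 8.12 with miR-141 and 8.63 with miR-200c. With miR-200c it was 1.85-fold above control miRNA and 1.45-fold above transfectant only, above both controls but short of the rule on the second. With miR-141 it lay 1.29-fold above control miRNA and level with transfectant only. Its other probe was below detection in every library.

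Psme1 and Psme2, which form the interferon-inducible activator, were both lowest in transfectant only. Psme1 had signals of 9.76 in transfectant only, 10.14 in control miRNA, 10.21 with miR-141 and 10.37 with miR-200c, while Psme2 had 7.96, 8.50, 8.32 and 8.22. The other probe of Psme1 gave differences between the controls of 0.39, against 0.38 for the first. Psme3, the nuclear activator, was at 9.11, 8.84, 8.94 and 8.94, and Psmf1, an inhibitor of the core in vitro, at 10.09, 10.42, 10.54 and 10.38. Psmc3ip and Psme3ip1, which are no part of the proteasome, differed by -0.09 and 0.13 with miR-141 and by 0.04 and -0.08 with miR-200c, all against control miRNA.

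**Figure D3:**
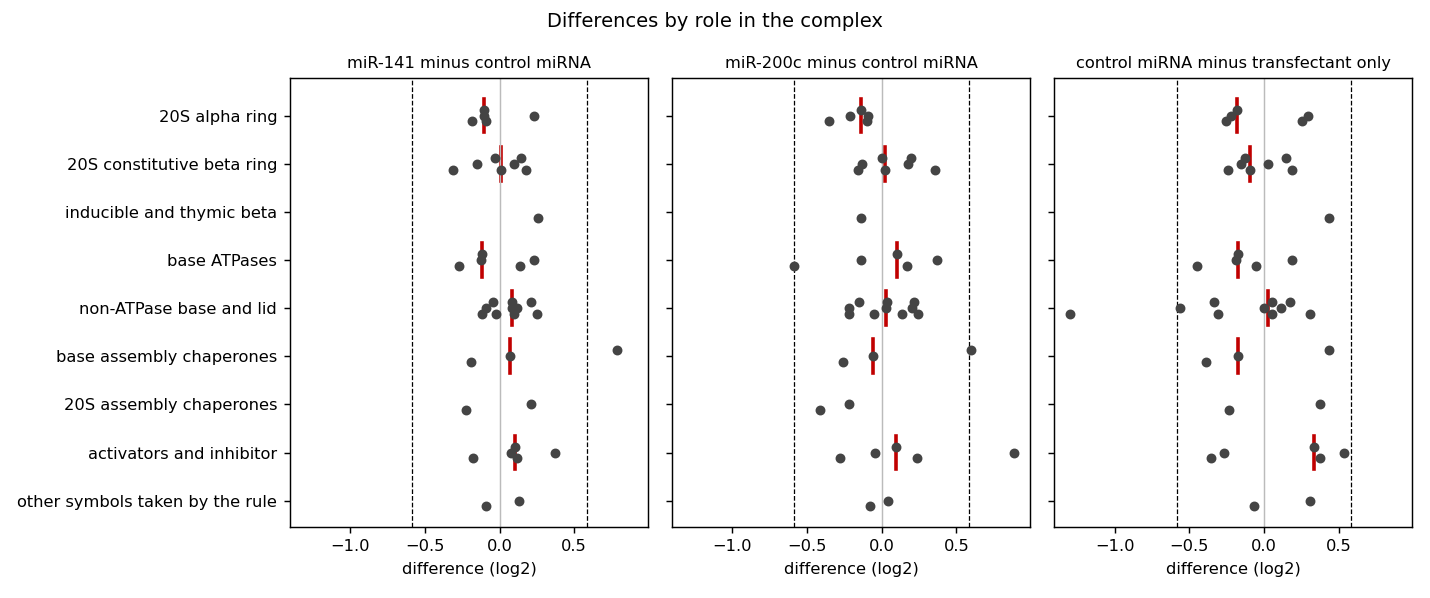
Log2 differences of detected proteasome-family genes by role (1 point per gene, red bars at the median of groups of 3 or more, dashed lines at 1.5-fold) for each miRNA against control miRNA and between the controls. Beyond the lines lie Psmd9 with miR-141, Psme4, Psmd9 and Psmc1 with miR-200c, and Psmd6 between the controls.

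A comparison of the controls gives the size of differences between libraries that had received neither miRNA. Between control miRNA and transfectant only, 0 of 40 proteasome genes were called higher and 1 lower, where 3.16% of 7509 genes were called higher and 4.51% lower. The called gene was Psmd6, and 1 of 40 is no larger a share than the background. With values below detection at their bound the count was 0. The median log2 difference was -0.06, against 0.00 over all detected genes, and it turned to 0.16 under median scaling, as it did with the authors' processed values. Past a smaller size of 1.3-fold stood Psme2 at 0.54, Psmb10 at 0.44 and Psmd5 at 0.44 on the higher side and Psmd6, Psmd12 at -0.56, Psmc2 at -0.45 and Psmd9 at -0.39 on the lower side, 7 of 40 genes where 24.6% of all genes passed that size. Psmd6 and Psmd9 were below detection in control miRNA, and at their bounds of 1.29-fold and 1.19-fold neither is shown to pass it. Among the 29 bright proteasome genes 0 were called, where 2.64% of the brightest genes were. Of the 38 genes detected in all libraries, transfectant only was the highest or lowest library in 29 (76.3%), against 59.6% of all genes. It was the highest in 15 and the lowest in 14, so under quantile normalization it stood apart without a common direction. This split was not counted under other scalings. The shift of the median to 0.16 compares with 0.06 over all detected genes under median scaling and 0.02 under the authors' processing. The balance of highest and lowest may therefore depend on the normalization.

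The last comparison was between the miRNAs. Of 39 proteasome genes, 1 was called higher with miR-141 and 0 lower, where 4.01% of 7285 genes were called higher and 4.53% lower. The called gene was Psmg3. Among the 29 bright proteasome genes 0 were called, where 5.7% of the brightest genes were. At 1.3-fold Psmg3, Psmb10 and Psme4 passed, 3 of 39, where 20.9% of all genes passed. The median log2 difference for miR-141 minus miR-200c was 0.01, as over all detected genes. Psmg3 was at 0.62, Psmb10 at 0.40 and Psme4 at -0.51, and the differences of the 37 further detected genes were between -0.23 and 0.32.

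With no replicates, the probes of a gene show how far measurements of 1 transcript on the same arrays can differ, though not how far cultures differ. In 11 genes at least 2 probes were detected. For miR-141 minus control miRNA, the probes of a gene lay a median of 0.11 and at most 0.57 apart on the log2 scale and had the same sign in 7 of 11 genes. For miR-200c minus control miRNA they lay a median of 0.22 and at most 0.62 apart, with the same sign in 4 of 11. Psmb10, Psmb3 and Psme1 had the same sign on both detected probes in both of these comparisons.

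Genes that work with the proteasome were compared by the same rule. Of 10 associated factors on the array, 9 were detected, and 0 were called with miR-141 and 1 with miR-200c, where 5.51% and 8.62% of all genes were called in either direction. That gene was Zfand2a, an arsenite-inducible protein that binds the regulatory particle, with signals of 10.18 in transfectant only, 10.34 in control miRNA, 10.85 with miR-141 and 11.36 with miR-200c. It was 2.03-fold above control miRNA and 2.26-fold above transfectant only with miR-200c, and 1.42-fold and 1.58-fold above them with miR-141. Both miRNA libraries thus lay above both controls. Usp14, a deubiquitinase of the regulatory particle, was called between the controls, 1.61-fold lower in control miRNA. Of the 9 factors considered there it was the only 1 called, where 4.51% of all genes were called lower. Its signals were 7.13, 6.44, 6.34 and 6.27 in the same order of libraries. As in Psmd12 and Psmd14, transfectant only lay above the 3 others, and a dimmer probe detected in that library alone had 5.40 there and 4.94 in control miRNA. The core chaperone Pomp stayed between 12.54 and 12.66 and the small lid subunit gene Sem1 between 12.49 and 12.64. Adrm1, the gene of a further ubiquitin receptor, was not analysed here.

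Of 9 genes for ubiquitin supply and shuttling on the array, 8 were detected and 1 was called, with both miRNAs, so that the share of 1 in 8 rests on a single gene beside the same 5.51% and 8.62%. This was Uba6, which encodes an enzyme that activates ubiquitin and the ubiquitin-like Fat10. Its signals were 9.53 in transfectant only, 9.45 in control miRNA, 8.52 with miR-141 and 8.63 with miR-200c. Both controls lay together and the miRNA libraries lay together below them, by 1.90-fold and 1.76-fold against control miRNA and by 2.01-fold and 1.86-fold against transfectant only. The other probes of Uba6 were below detection. The median log2 difference of the 8 genes was 0.02 with either miRNA against control miRNA. Vcp, the segregase that delivers substrates, stayed between 12.33 and 12.45.

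Of 11 regulators of proteasome genes on the array, 7 were detected. Of 5 considered with each miRNA 0 were called, where 5.51% of all genes were with miR-141 and 8.62% with miR-200c. At these rates 0 of 5 does not set the list apart. Nfe2l1 had signals of 9.67 in transfectant only, 9.89 in control miRNA, 9.38 with miR-141 and 9.82 with miR-200c, lowest with miR-141 at log2 differences of -0.51 from control miRNA and -0.29 from transfectant only. Irf1, which raises the inducible subunits, was at 7.28, 7.29, 7.73 and 7.81, above both controls with either miRNA but short of the 1.5-fold size. The other probes of Irf1 were below detection in every library. Maff was also above both controls with either miRNA, at 8.29, 8.34, 8.58 and 8.49. Mafg was below both, at 9.28, 9.31, 8.91 and 8.92, and both genes were short of 1.5-fold. Nfe2l2, the master regulator of antioxidant genes, was above detection only in transfectant only, at 5.48 against 4.87 to 5.07 in the others. Foxo3, a transcription factor known to raise genes of protein breakdown in muscle, was likewise detected only there, with signals of 5.71, 4.85, 5.15 and 5.30. Foxo3 was called lower in control miRNA, where 4.51% of all genes were called lower. At its bound it was at least 1.3-fold lower there, short of the 1.5-fold size. Of 6 peptide loading partners of the inducible subunits, only B2m and Tapbp were detected. Of these 2 genes 0 were called, which does not set the list apart beside the shares above. Tapbp was below detection in transfectant only, with a signal of 5.28 there and 5.73 to 5.83 in the others, while Tap1, Tap2 and Nlrc5 were below detection everywhere, as were Psmb8 and Psmb9.

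**Figure D4:**
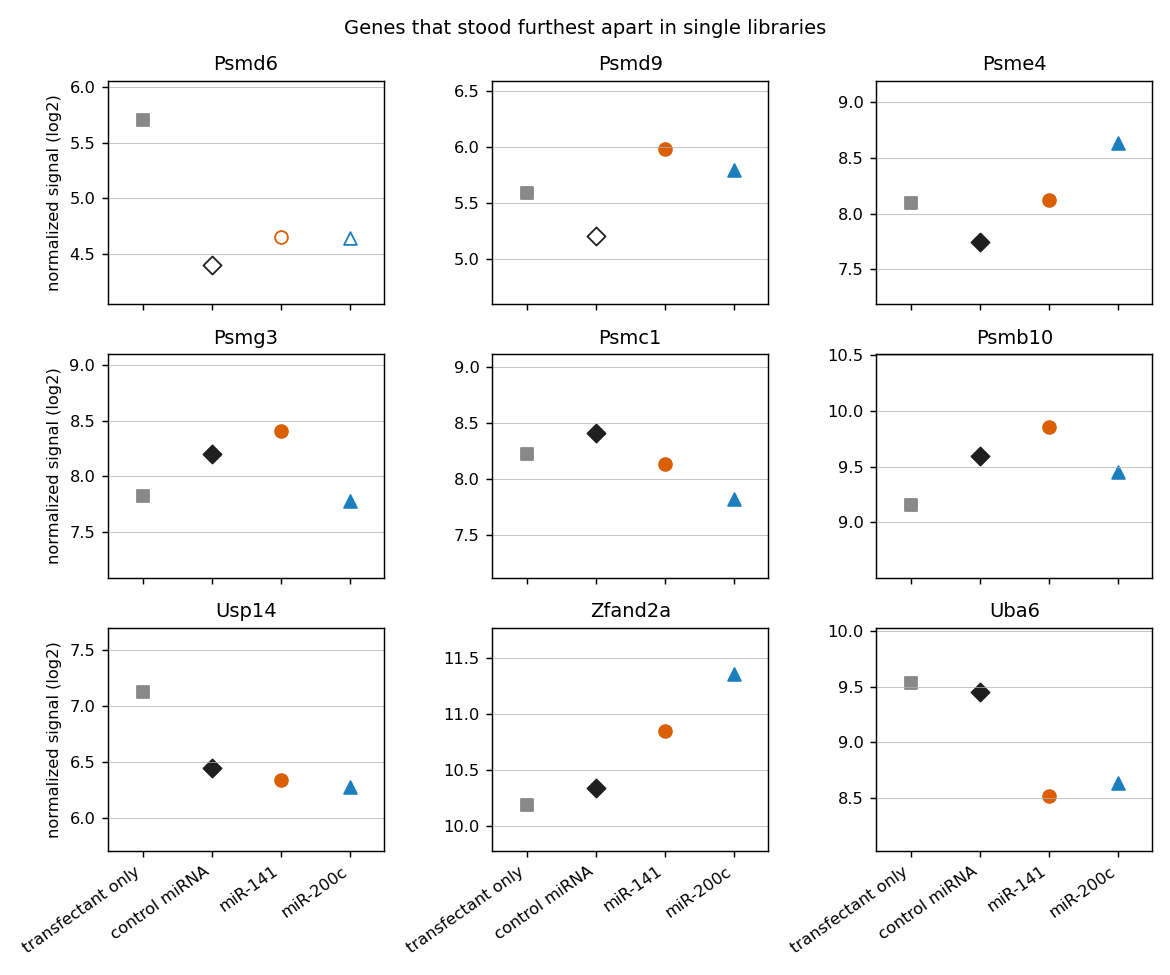
Normalized log2 signal in the 4 libraries for 6 proteasome genes and for Usp14, Zfand2a and Uba6, with each vertical axis spanning 2 log2 units and open symbols where a proteasome probe was below detection. Psmd6 and Usp14 are highest in transfectant only, Psme4 and Zfand2a are highest with miR-200c, and Uba6 is lower in both miRNA libraries than in both controls.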

How the data were processed

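The deposited table of non-normalized values gave an average bead signal intensity per probe on a linear scale and, per the file headers, a detection p-value against the background of the same array. The submitters' processing notes name GenomeStudio, with no version or settings. The authors' processed intensity values were deposited in a further table, with medians of 46.3, 44.7, 45.0 and 45.8 for transfectant only, control miRNA, miR-141 and miR-200c. Each of its columns was a straight line of the raw signals of that array to within 0.0113 units, so the scale was linear and genes were not centred, but why these lines were chosen is not given in the sources used here. All value columns matched a library.

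For the report, normexp background correction based on detection p-values, an offset of 16, quantile normalization and log2 were applied to the raw signals (neqc, limma 3.58.1, R 4.3.3), and analysed with Python 3.11.15, numpy 2.4.6 and pandas 2.3.3. Quantile normalization removes a shift shared by most genes, and the offset shrinks the differences of dim probes. Of 46632 probes, 29976 had 1 gene symbol in the platform annotation, 10 several and 16646 none. The probe with the highest mean log2 signal stood for each gene, and 80 probes covered the 49 proteasome genes. A probe below detection has only a bound, so its fold is given as at least the fold against the lowest detected signal of its array.

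The members, role groups and related lists were chosen with earlier results of these data known. Genes named with all their values were those past the 1.5-fold size in any comparison, the highest and lowest 2 of each comparison among genes detected in all 4 libraries, Psmb5 to Psmb10, genes detected in some libraries only, and every called gene of the related lists with Nfe2l1, Nfe2l2, Pomp, Sem1 and Usp14. As exceptions, Psmb9 is given only as below detection, Pomp and Sem1 by their ranges, and Nfe2l2 by its detected value and a range. Psma3, Psme3, Psmf1, Irf1, Maff, Mafg, Tapbp and Vcp fell outside this rule and were chosen after their values were seen. Promoter and miRNA sequences came from RefSeq tables of build GRCm38.p6.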

Additional observations from a re-analysis of the deposited data

How the results depend on the processing

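Results were recomputed under 11 alternatives, of which 2 were chosen after seeing the data (the brightest probe by raw signal, and leaving out Psmc3ip and Psme3ip1). Of 104 recomputed counts and medians 92 kept within 1.5 times the count or 0.1 of the median on the log2 scale, and 12 did not. With a fold size of 1.3 in place of 1.5, the count of proteasome genes was 1 for miR-141 (Psmd9), 2 for miR-200c (Psme4 and Psmc1), 7 between the controls and 3 between the miRNAs, where 13.1%, 17.2%, 24.6% and 20.9% of all genes passed. The call of Psmd6 between the controls gave a count of 0 with undetected values at their bound (log2 difference -0.37) and with detection required in all 4 libraries, since both settings remove dim values. The call of Psmg3 between the miRNAs gave a count of 0 without background correction (0.53) and with an offset of 50 (0.56), both of which shrink differences by construction. Under median scaling the median difference of control miRNA from transfectant only was 0.162, and 0.161 using the authors' processed values, against -0.060. That of miR-141 from transfectant only was 0.180 and 0.133, against 0.016. No direction is read from either, and the cause was not tested. The difference of Psme4 with miR-200c ranged from 0.76 to 0.89 against control miRNA and from 0.47 to 0.54 against transfectant only. No paired analysis was possible because each group has 1 library. Dim probes limit Psmd6, Psmd9, Psmd2 and the 9 genes below detection.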
